A study of Mus musculus with 8 samples.

Results

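The miR-30 family is a group of miRNAs that share 1 seed, the bases by which a miRNA pairs with its target mRNAs. Its members here were the 5 mature miRNAs named mmu-miR-30a, mmu-miR-30b, mmu-miR-30c, mmu-miR-30d and mmu-miR-30e, chosen by name from the 1040 mouse miRNAs that the deposited table lists with 1 probe each. RNA was compared between CD45+ cells (3 samples), cTECs, the epithelial cells of the thymic cortex (2 samples), and mTECs, the epithelial cells of the medulla (3 samples), all sorted by flow cytometry from untreated NOD wildtype female mice at 4 weeks of age. The NOD strain is prone to autoimmune diabetes, and all 3 groups share this background. A sample came from the pooled thymi of 10 to 12 mice, so that differences between single mice cannot be seen. By the study's gates, both TEC groups were EpCAM+ and MHC II+ without CD45, cTECs carried Ly51 and mTECs did not, and the CD45+ cells were EpCAM-, so that this group is mostly thymocytes but was not sorted further by lineage.

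A miRNA is cut from a hairpin precursor and loaded on an Argonaute protein, which it guides to mRNAs with a match to its seed. Because members of a family have the same seed, they are expected by sequence to share many targets, while the rest of the molecule and the hairpin it comes from differ. The miR-30 family is widely expressed and is best known from epithelial and mesenchymal cells, where it is studied in differentiation and in the change from an epithelial to a mesenchymal form. In the thymus the comparison of TECs with CD45+ cells asks which miRNAs belong to the epithelium, and that of mTECs with cTECs asks how both compartments differ.

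Mature sequences of 3 of the 5 members were found in RefSeq (GRCm38.p6), and each equals the complement of the array's probe. They are shown because the members differ in few bases, and an array probe has to tell them apart. Capitals mark the seed, bases 2 to 8 from the 5′ end.
miR-30a: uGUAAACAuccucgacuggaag
miR-30c: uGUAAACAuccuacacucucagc
miR-30e: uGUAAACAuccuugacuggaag
miR-30a and miR-30e differ by 1 base, C13U (base of miR-30a first, position counted from the 5′ end, then base of miR-30e). By the probes, miR-30d differs from miR-30a at 1 of 22 bases and from miR-30e at 2, and miR-30b differs from miR-30c at 4. All other pairs differ at 5 to 8 bases. All 5 members share their first 11 bases, and 14 of 22 positions in all. The files hold no test of whether a probe also binds another member's RNA, so the values of miR-30a, miR-30d and miR-30e may each hold some signal of their near-identical copies.

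In GRCm38.p6, miR-30a lies at chr1:23272274-23272295 on the plus strand in the hairpin Mir30a (chr1:23272269-23272339). miR-30c has 2 sources that give the same mature RNA and that the array cannot separate: chr1:23291714-23291736 on the plus strand in Mir30c-2 (chr1:23291701-23291784), 19361 bases beyond Mir30a, and chr4:120769584-120769606 on the minus strand in Mir30c-1 (chr4:120769534-120769622). miR-30e lies at chr4:120772660-120772681 on the minus strand in Mir30e (chr4:120772606-120772697), 2983 bases from Mir30c-1. Both hairpins on chromosome 4 lie within the span of the protein-coding gene Nfyc (chr4:120757435-120831579), a subunit of the transcription factor NF-Y. The table of genes used here gives no exons, and lists no protein-coding gene over the hairpins on chromosome 1.

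The arrays were of 1 colour, and their number limits the precision. Signals are given after scaling by the 75th percentile of an array, taken over 65 mouse probes, those well above background, by the scanner's flag, on all 8 arrays. The cTEC arrays were the dimmest: this percentile was 2910 and 1364 on them before scaling, against 4213 to 11503 on the other 6, and 122 and 98 mouse probes were well above background, against 169 to 325. For the tests, lower scaled signals were raised to a floor of 621.0, the dimmest signal well above background on cTEC replicate 2 and the highest such value of the 8 arrays. All 5 members were well above background on 7 arrays, and none was on cTEC replicate 2, so each fitted cTEC value below rests on cTEC replicate 1 and an upper limit, and for miR-30e, whose signal on cTEC replicate 1 also lay under the floor, on floored values of both arrays. All 5 were among the 309 miRNAs tested.

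miR-30e was the member with the largest fitted difference from CD45+ cells in both TEC groups, and the smallest between mTECs and cTECs. Its scaled signal was 2209, 3167 and 2823 on the CD45+ arrays and 1036, 955 and 708 on the mTEC arrays. On cTEC replicate 1 it was 577, below the floor but well above background there, and on cTEC replicate 2 it was 348 and not well above background. The 3 groups did not overlap, with the CD45+ arrays high, the mTEC arrays lower and the cTEC arrays lowest. How common such a separation was among all tested miRNAs was not counted.

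miR-30b had the same order of groups with a smaller distance between CD45+ cells and mTECs. CD45+ cells gave signals of 2580, 2636 and 2218, cTECs gave 893 and 549, and mTECs gave 1553, 1661 and 1617. All mTEC arrays lay below all CD45+ arrays and above both cTEC arrays, an order that was not counted over all tested miRNAs either.

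For miR-30c, the member with 2 hairpins, the CD45+ arrays gave 2765, 2898 and 2341, the cTEC arrays 885 and 569, and the mTEC arrays 1777, 2370 and 2331. mTEC replicate 2 lay inside the range of the CD45+ arrays, so these groups overlapped, and both cTEC arrays were lower than either group.

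On this scaling, miR-30d had a mean level in mTECs within the range of the CD45+ arrays, and the direction of its difference depended on the scaling. In mTECs against CD45+ cells its log2 fold change was -0.82 with the percentile over every mouse probe and -0.54 unscaled. It was 0.34 without cTEC replicate 2 and with scaling and floor taken again. Signals were 1942, 2176 and 2002 in CD45+ cells, 1057 and 422 in cTECs, and 1994, 2199 and 2051 in mTECs. The means were 2040 ± 121 (SD, n = 3) in CD45+ cells and 2081 ± 106 (SD, n = 3) in mTECs.

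miR-30a was the only member whose mean signal was higher in mTECs than in CD45+ cells by more than the SD of either group, a direction that turned with the percentile taken over every mouse probe (log2 fold change -0.40) and without scaling (-0.12), while its value rose to 0.78 with the median as scaling. The CD45+ arrays gave 1007, 1380 and 1181, the cTEC arrays 665 and 418, and the mTEC arrays 1673, 1811 and 1372. CD45+ replicate 2 and mTEC replicate 3 overlapped narrowly, and the means were 1190 ± 187 (SD, n = 3) and 1619 ± 225 (SD, n = 3).

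**Figure D1:**
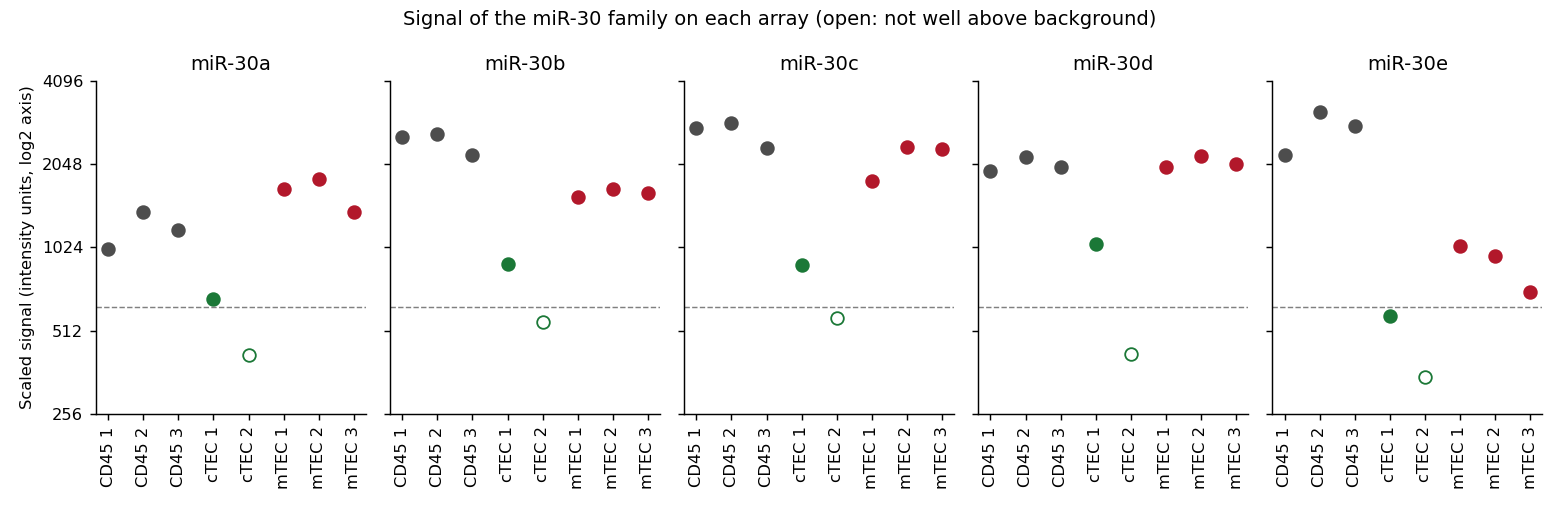
Scaled signal of each member (vertical, intensity units on a log2 axis) on each of the 8 arrays (horizontal), grey for CD45+, green for cTEC and red for mTEC, with open circles for arrays on which the probe was not well above background and a dashed line at the floor of 621.0. cTEC replicate 2 lies under the floor for all 5 members, and only for miR-30e do the mTEC arrays, at 708 to 1036, lie far below the CD45+ arrays, at 2209 to 3167.

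In mTECs against CD45+ cells, 2 of the 5 members passed the test, and both were lower in mTECs. Tests were made with limma in 1 model of the 3 group means over all 309 tested miRNAs, and a call is an adjusted p under 0.05 after the Benjamini-Hochberg method. miR-30e fell by 1.61 on the log2 scale (SE 0.19, adjusted p = 0.00104), to 0.328 of the level in CD45+ cells, and miR-30b fell by 0.62 (SE 0.14, adjusted p = 0.0219), to 0.651. Of the 309 tested miRNAs 14.9% were called lower in this comparison, and of the 120 that were well above background on every CD45+ and mTEC array, as the members were, 31.7% were.

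The other 3 members did not pass. The log2 fold change was -0.31 for miR-30c (SE 0.17, adjusted p = 0.36), 0.03 for miR-30d (SE 0.19, adjusted p = 1) and 0.45 for miR-30a (SE 0.15, adjusted p = 0.094). The members thus ran from -1.61 to 0.45 with a median of -0.31, where the median over all 309 was 0. That 0 depends on the floor, at which many of the 309 lay in both groups. With the floor at the median or lowest of the arrays, the median over the 309 was 0.22 and 0.45, while miR-30a stayed at 0.45. Among the 120 miRNAs, 13 had a lower fold change than miR-30e and 101 a lower one than miR-30a.

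The call of miR-30e held without each of the 8 arrays in turn, with adjusted p between 0.00179 and 0.00693 and log2 fold changes between -1.75 and -1.44. That of miR-30b was lost without CD45+ replicate 1, without CD45+ replicate 2, and without each of the 3 mTEC replicates (adjusted p 0.0601 to 0.0834), with log2 fold changes between -0.64 and -0.57 in those fits. Without mTEC replicate 3, miR-30a was called higher in mTECs at 0.56 (adjusted p = 0.0484). Scaled by the median of the same 65 probes, miR-30a was also called higher, at 0.78 (adjusted p = 0.019), and miR-30b was not called, at -0.29 (adjusted p = 0.23). Nor was miR-30b called with quantile normalization (-0.29), normexp and quantile normalization (-0.31) or the deposited values (-0.13). Its call was lost, too, with the percentile over every mouse probe (-1.47) and unscaled (-1.18). With a floor at the median or lowest of the arrays, no filter or the replicate block, it was lost at -0.62. By the numbers in the names of the scanner files, which were read as positions on the slide, the arrays lie in 2 rows, each with all 3 groups, and miR-30e was lower in mTECs by a log2 difference of -1.35 in row 1 and -1.78 in row 2. miR-30b gave -0.75 and -0.44, miR-30a 0.51 and 0.42, miR-30d -0.04 and 0.08, and miR-30c -0.67 and 0.01.

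In cTECs against CD45+ cells all 5 members were called lower. miR-30e fell by 2.08 on the log2 scale (SE 0.21, adjusted p = 4.6e-04), miR-30c by 1.80 (SE 0.19, adjusted p = 5.5e-04), miR-30b by 1.73 (SE 0.16, adjusted p = 3.0e-04), miR-30d by 1.32 (SE 0.21, adjusted p = 0.0034) and miR-30a by 0.87 (SE 0.17, adjusted p = 0.0079). Their median was -1.73. Of the 309 miRNAs 20.1% were called lower here, and of the 120 well above background on every CD45+ and mTEC array 45% were, so a lower signal on the cTEC arrays was common among miRNAs of this brightness. The sizes depended on the scaling, with log2 fold changes from -3.81 to -2.50 with the percentile over every mouse probe, from -4.27 to -2.95 unscaled, and from -0.90 to -0.40 with the deposited values. After quantile normalization 1 of the 5 was called, miR-30e at -2.26 (adjusted p = 0.0033), while miR-30a was not called with the median as scaling (adjusted p = 0.11), nor miR-30d with the deposited values (adjusted p = 0.12).

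These fold changes take cTEC replicate 2 at the floor and so understate any further distance. On cTEC replicate 1 alone, with the lowest of the 8 arrays' floors, under which no member lay there, the log2 differences from the mean of the CD45+ arrays were -2.26 for miR-30e, -1.59 for miR-30c, -1.47 for miR-30b, -0.95 for miR-30d and -0.83 for miR-30a. In the fit without cTEC replicate 2, whose single cTEC sample takes its spread from the other groups, miR-30a was no longer called (adjusted p = 0.0625) and the other 4 were. When scaling and floor were also taken again from the 7 remaining arrays, the log2 fold changes were -0.36 for miR-30a (adjusted p = 0.57), -0.999 for miR-30b (adjusted p = 0.0011), -1.12 for miR-30c (adjusted p = 0.0053), -0.48 for miR-30d (adjusted p = 0.034) and -1.79 for miR-30e (adjusted p = 0.016). In slide row 1 the differences lay between -0.82 and -2.01, the latter for miR-30e with its cTEC signal at the floor. The only cTEC array in row 2 is replicate 2, with all 5 members under the floor, so row 2 gives no measured difference.

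In mTECs against cTECs, 4 of the 5 members were called higher in mTECs. miR-30c was higher by 1.49 on the log2 scale (SE 0.19, adjusted p = 0.0021), miR-30d by 1.35 (SE 0.21, adjusted p = 0.0044), miR-30a by 1.32 (SE 0.17, adjusted p = 0.0021) and miR-30b by 1.11 (SE 0.16, adjusted p = 0.0032). miR-30e, with 0.47 (SE 0.21, adjusted p = 0.25), did not pass, although its arrays did not overlap between these groups. Of the 309 miRNAs 16.2% were called higher in mTECs, and of the 120 brighter ones 32.5% were. After quantile normalization the limma test called 0 of the 5, with 3 at an unadjusted p under 0.05 and log2 fold changes from 0.74 for miR-30e to 1.64 for miR-30c. It called 2 with the deposited log2 values and 2 with the percentile over every mouse probe.

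The value of miR-30e in this comparison is limited by the floor, under which both its cTEC signals lay. With a floor at the median or at the lowest of the 8 arrays it was 1.02 (adjusted p = 0.027 and 0.034), a call in the same direction. Without cTEC replicate 2 and with scaling and floor taken again, the 4 called members kept their calls, with log2 fold changes between 0.70 and 1.12, and miR-30e had 0.50 (adjusted p = 0.54). In slide row 1 the differences lay between 0.66, for miR-30e with its cTEC signal at the floor, and 1.33, and row 2 gives no measured difference, since its only cTEC array is replicate 2.

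**Figure D2:**
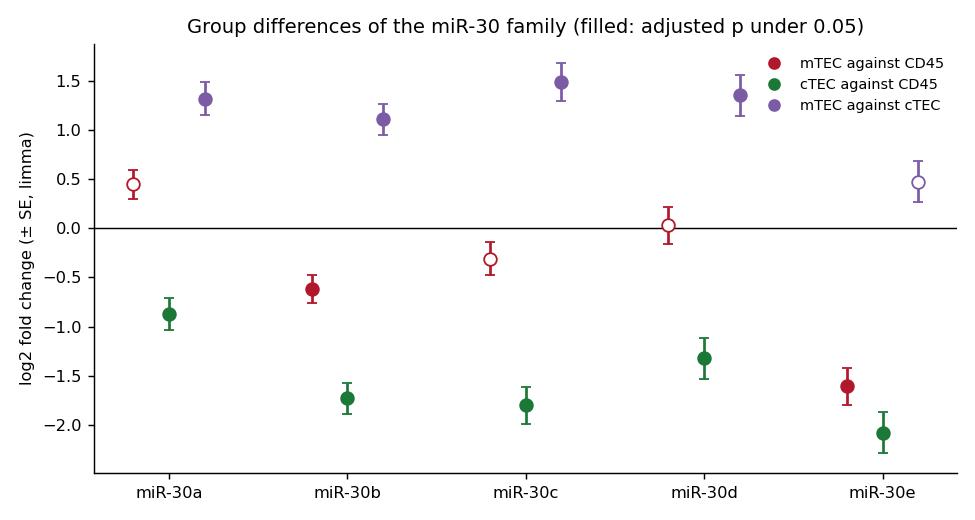
log2 fold change (vertical, ± SE from limma) of each member (horizontal) in mTECs against CD45+ cells (red), cTECs against CD45+ cells (green) and mTECs against cTECs (purple), filled where the adjusted p was under 0.05. In mTECs the members spread from -1.61 for miR-30e to 0.45 for miR-30a around 0, while all 5 cTEC values lie below 0; the comparisons share arrays and are not independent.

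With mTECs and cTECs averaged and set against CD45+ cells, 4 members were called lower: miR-30e by -1.85 (adjusted p = 2.5e-04), miR-30b by -1.17 (adjusted p = 5.6e-04), miR-30c by -1.06 (adjusted p = 0.0021) and miR-30d by -0.65 (adjusted p = 0.028). miR-30a, at -0.21 (adjusted p = 0.43), was not, but its value depended on the scaling: it was called lower with the percentile over every mouse probe, at -1.45 (adjusted p = 0.018), and unscaled, at -1.53 (adjusted p = 0.018), and was 0.13 (adjusted p = 0.69) with the median. Of the 309 miRNAs 20.1% were called lower, and of the 120 brighter ones 45%. With all TEC arrays as 1 group only miR-30e was called, with -1.06 for miR-30b (adjusted p = 0.11) and -0.91 for miR-30c (adjusted p = 0.34). The same held after quantile normalization, with -0.95 for miR-30b (adjusted p = 0.20) and -0.77 for miR-30c (adjusted p = 0.24). With the deposited values miR-30c was not called, at -0.37 (adjusted p = 0.058). The arrays of the TEC groups and of the CD45+ group did not overlap for miR-30b and miR-30e. This describes these members only, since the share of all tested miRNAs without such overlap was not taken. miR-30d lost its call without each of the CD45+ replicates and each of the mTEC replicates in turn (adjusted p 0.0530 to 0.107). Its log2 fold changes in those fits lay between -0.68 and -0.60. It was at -0.07 without cTEC replicate 2 when scaling and floor were taken again. Its value averages a log2 fold change of 0.03 in mTECs and one of -1.32 in cTECs.

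**Figure D3:**
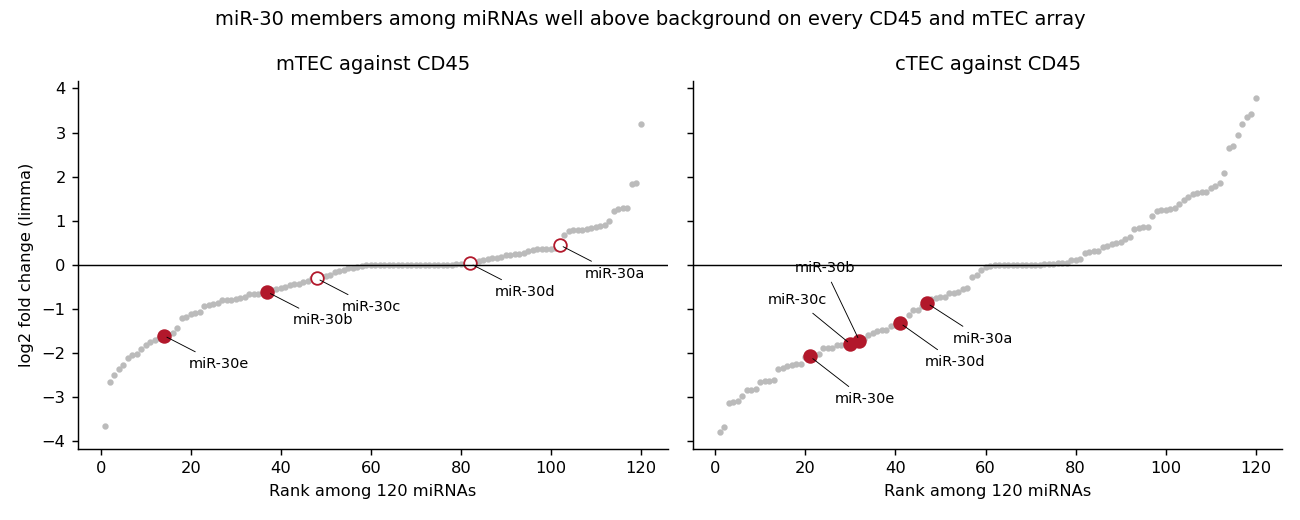
log2 fold change from limma (vertical) of the 120 miRNAs well above background on every CD45+ and mTEC array, in order of size (horizontal, rank), for mTECs and cTECs against CD45+ cells, with the members as red circles, filled where called. In mTECs the members stand apart from each other, from miR-30e with 13 lower miRNAs to miR-30a with 101, and in cTECs they stand closer, from 20 lower miRNAs for miR-30e to 46 for miR-30a.

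Because scaling divides all probes of an array by the same number, the difference between 2 members on the same array does not depend on it where both lie above the floor, as on all CD45+ and mTEC arrays. The level of such a difference also reflects how strongly each probe binds, so only its change between groups was read. The log2 signal of miR-30a minus that of miR-30e was -1.13, -1.20 and -1.26 in CD45+ cells, 0.03 on cTEC replicate 1 (0.23 with the lowest floor), and 0.69, 0.93 and 0.96 in mTECs. On cTEC replicate 2 the floor set it to 0, as it set all pairs of members near 0 there. The change from CD45+ cells to mTECs was 2.05, against SDs of 0.06 in CD45+ cells and 0.14 in mTECs (n = 3 each), and the arrays of both groups lay far apart.

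An exact permutation test of the 3 groups (280 distinct groupings of the 8 arrays, smallest possible p 0.00357) gave p = 0.00357 for this pair, and 0.0119 after adjustment over the 10 pairs of members. The test includes the floored cTEC values, and with the lowest floor the pair again gave the smallest p, 0.0179 after adjustment. miR-30d with miR-30e reached the same values under both floors, while miR-30b with miR-30d reached them only under the reported floor and had an exact p of 0.129 (0.161 adjusted) under the lowest. miR-30d minus miR-30e ran from -0.54 to -0.19 in CD45+ cells and from 0.94 to 1.54 in mTECs, and miR-30b minus miR-30d from 0.15 to 0.41 and from -0.41 to -0.34. In all, 7 of the 10 pairs had an adjusted p under 0.05 in this exact permutation test, and for all 10 the CD45+ and mTEC arrays did not overlap. Differences of this kind were common: of all 7140 pairs among the 120 brighter miRNAs, 81.1% had an unadjusted exact p under 0.05, against 8 of the 10 pairs of members, and in 71.6% the CD45+ and mTEC arrays did not overlap. The count of 7 was 4 with the lowest floor. It was 2 without any single CD45+ replicate and 3 without cTEC replicate 1, where the smallest possible p is 0.00952 and 0.0143. Without the cTEC arrays, 3 arrays against 3 cannot give an exact p under 0.1, and each of the 10 pairs gave 0.1.

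The change of miR-30a against miR-30e between CD45+ cells and mTECs was 1.86 in slide row 1 and 2.20 in slide row 2. It lay between 2.01 and 2.14 when single arrays were left out, and its adjusted exact permutation p then lay between 0.0357 and 0.0476. The deposited log2 values gave 0.88 (adjusted exact p = 0.0357) and normexp background correction together with quantile normalization gave 1.67 (adjusted exact p = 0.0357). These members differ by 1 base, and binding of either RNA to the other's probe was not tested.

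**Figure D4:**
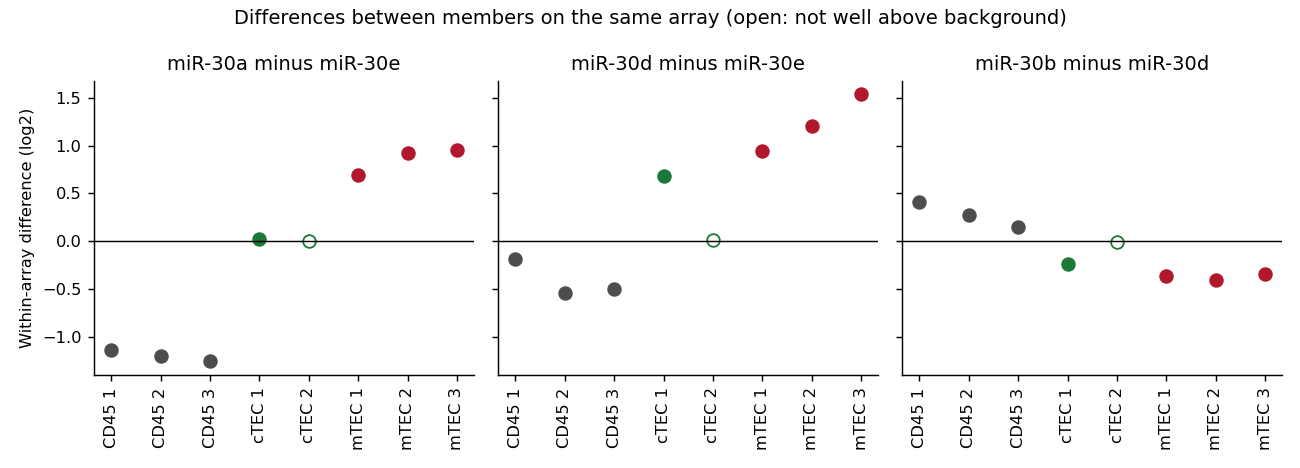
Within-array difference in log2 signal (vertical) for 3 pairs of members on each of the 8 arrays (horizontal), grey for CD45+, green for cTEC and red for mTEC, open where a probe was not well above background. The difference of miR-30a and miR-30e goes from -1.26 to -1.13 on the CD45+ arrays to 0.69 to 0.96 on the mTEC arrays.

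Across the 8 arrays, the members' log2 signals correlated with a Pearson's r from 0.32 for miR-30a with miR-30e to 0.97 for miR-30b with miR-30c. These are descriptions over 8 arrays in 3 groups that share the dim cTEC arrays. miR-30c and miR-30e, whose hairpins on chromosome 4 are neighbours, had an r of 0.71, and miR-30a and miR-30c, neighbours on chromosome 1, had 0.79. Of 65 miRNAs that all arrays placed well above background, those whose pattern was most like the mean log2 signal of the 5 members were miR-21 (r = 0.993 over 8 arrays), miR-26a (0.971) and miR-16 (0.966). On the 6 CD45+ and mTEC arrays alone, their r was 0.951, 0.938 and 0.955. miR-21, an abundant miRNA of many tissues, had scaled signals of 11860 to 14579 in CD45+ cells, 1249 and 710 in cTECs, and 6621 to 8442 in mTECs.

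Each hairpin also gives a miRNA from its other arm, and these opposite arms, marked with a star, were near background. Only miR-30a* and miR-30e* were well above background on any array, and neither on a cTEC array. They are shown because they come from the hairpins of miR-30a and miR-30e, and they differ by G18A (miR-30a* first).
miR-30a*: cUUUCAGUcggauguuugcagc
miR-30e*: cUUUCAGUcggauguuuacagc
miR-30a* was well above background on 2 of 3 mTEC arrays and on no CD45+ array. Its signal was 142, 204 and 141 on the mTEC arrays and 42.9, 52.3 and 62.7 on the CD45+ arrays, which do not overlap. The share of all miRNAs without such overlap was not taken. On the cTEC arrays miR-30a* gave 115 and 291, the latter above every mTEC value though not well above background. Signals this low may follow the background of an array, which was not tested. No fold is given, since mTEC replicate 2 was not well above background, and in the fit miR-30a* lay at the floor on all arrays (adjusted p = 1). miR-30e* was well above background on CD45+ replicates 1 and 2 and mTEC replicate 3, with 120, 139 and 121 on the CD45+ arrays and 80.9, 113 and 115 on the mTEC arrays, and no fold is given. The arms miR-30b*, miR-30c-1*, miR-30c-2* and miR-30d* were well above background on 0 of 8 arrays. Signals of miR-30c-1* and miR-30c-2* at that level also did not overlap, with means of 54.7 and 79.3 on the mTEC arrays against 22.6 and 41.0 on the CD45+ arrays.

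The table holds 1 further miRNA with the seed of the family, miR-384-5p, at chrX:105344332-105344354 on the minus strand. Its sequence is shown because it shares the seed and little else with the members.
miR-384-5p: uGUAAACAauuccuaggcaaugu
It was not well above background on any array.

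Other families with members that differ by few bases were set beside miR-30. Of the 9 let-7 family members, which are best known as promoters of differentiation, 2 were called higher in mTECs than in CD45+ cells and 4 lower, with a median of -0.25 and a range from -1.19 for let-7f (adjusted p = 0.00104) to 1.29 for let-7b (adjusted p = 0.0017). Of the miR-29 family, 1 of 3 was called, miR-29b at -1.56 (adjusted p = 0.0056), and miR-29c lay at the floor. In the miR-26 family neither member was called, with -0.66 for miR-26a (adjusted p = 0.12) and 0 for miR-26b, whose CD45+ and mTEC signals (means 383 and 196) all lay under the floor. In cTECs against CD45+ cells, 5 of 9 let-7 members, 1 of 2 miR-26 members and 2 of 3 miR-29 members were called lower, and 2 let-7 members were called higher. Of the 309 tested miRNAs, 14.9% were called lower in mTECs and 20.1% in cTECs, and of the 120 brighter ones 31.7% and 45%. Called higher in mTECs and in cTECs were 28 and 33 of the 309, and 16 and 27 of the 120.

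The marker miRNAs of the sorted cells moved with the groups. The 7 epithelial markers, the miR-200 family with miR-205 and miR-203, were all called higher in mTECs than in CD45+ cells, from 1.78 for miR-429 (adjusted p = 1.8e-05) to 4.22 for miR-205 (adjusted p = 9.9e-04). These fitted values understate the distance, since the signals of both in CD45+ cells lay under the floor. The 7 markers' summed scaled signal was 623 to 704 on the CD45+ arrays and 36800 to 39058 on the mTEC arrays. On the cTEC arrays it was only 4442 to 8620, with 3 to 5 of the 7 well above background and 1 of 7 called higher than in CD45+ cells, miR-200c at 1.00 (adjusted p = 0.019). The floor limits this value, since the CD45+ signals of miR-200c (mean 141) lay under it. It also limits the count, since the cTEC means of miR-200a (602), miR-141 (492), miR-203 (447) and miR-429 (360) lay under it.

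Of the 6 lymphoid markers 5 were called lower in mTECs, led by miR-181a at -3.67 (adjusted p = 0.0017), while miR-155 had -0.80 (adjusted p = 0.060). Their sum was 25926 to 30137 in CD45+ cells, 4103 to 5861 in cTECs and 3368 to 4742 in mTECs, and miR-155 alone gave 1308 to 2184 of the sum in mTECs. The myeloid miR-223 had a fitted log2 fold change of -0.44 in mTECs (adjusted p = 0.0017), which the floor limits, since its mean signal was 844 in CD45+ cells and 132 in mTECs. Of the 2 erythroid markers, miR-451 and miR-144, neither was tested, and on the CD45+ and cTEC arrays neither was well above background. On the mTEC arrays miR-144 was well above background on replicate 3 only, and miR-451 on none. Of 7 mesenchymal and endothelial markers, 2 of the 4 tested were called higher in mTECs, up to 2.37 for miR-143 (adjusted p = 0.0070), with miR-126-3p at the floor in both groups. In cTECs 3 of the 4 were called higher than in CD45+ cells, miR-126-3p among them at 1.38 (adjusted p = 0.034). The values of 2.37 and 1.38 understate the distance. In CD45+ cells the signals of miR-143 and miR-126-3p (means 97.0 and 232) lay under the floor. The sum of the 7 was 477 to 596 in CD45+ cells, 3759 to 7872 in cTECs and 6817 to 7024 in mTECs. The part of other cell types in the miR-30 signals was not tested, and in these sorted bulk samples fewer cells of a type and less RNA per cell cannot be told apart.

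Base composition also moved with the group differences. Across the 120 miRNAs well above background on every CD45+ and mTEC array, Pearson's r of GC content with the log2 fold change was 0.44 in mTECs against CD45+ cells, 0.63 in cTECs against CD45+ cells and -0.57 in mTECs against cTECs. These values of r run over miRNAs, not over samples, and miRNAs are no independent replicates. GC content was 40.9% for miR-30b and miR-30e, 43.5% for miR-30c, 45.5% for miR-30a and 50% for miR-30d, with a median of 50% among the 120. The part of base composition in the differences of the members was not tested.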

How the data were processed

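Cy3-labelled RNA of CD45+ (3 samples), cTEC (2) and mTEC (3) cells was hybridised to the 8 arrays of a single slide. Output of Feature Extraction 10.7.3.1 was deposited by the authors per array, holding intensity of the spots with and without subtraction of background, and a table of log2 values that they had quantile normalized. Their table also holds fold changes, p-values and log odds of their own comparisons, which were not used. The submitters' processing notes name limma, with no version. On each array, the deposited log2 values ranked the probes as the uncorrected median signal of their spots did.

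The present values came from the background-subtracted intensity of the deposited scanner files, and R 4.3.3 and limma 3.58.1 were used. Control and outlier spots were left out (1.09% to 2.51% of 14834 spots), no spot was saturated, and probes have 5 spots. Arrays were scaled to the 75th percentile over 65 probes, floored at 621.0 (9.28 on the log2 scale), since 15.9% to 30.1% of spots had a signal of 0 or less, and spots were averaged as log2 values. Tests covered the 309 miRNAs with most spots well above background on 2 arrays or more. One fit (lmFit, eBayes) of the 3 group means gave all comparisons, with 5 residual and 0.90 prior degrees of freedom. For p adjustment, 85 of them with every array at the floor counted as unchanged. This fit was checked on simulated arrays with known changes in mTECs only and independent noise. The simulation applied no floor and no scaling and had no dim cTEC array, so it does not bear on the floored cTEC values. Slide rows were inferred from the numbers in the scanner file names. The labels call the samples biological replicates.

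The members, lists and floor were chosen with earlier results of these data known. Named miRNAs were the members, their opposite arms, other miRNAs with the seed, the 3 of most similar pattern, and the highest and lowest of each list in mTECs against CD45+ cells. miR-200c was named after its value was seen. Alternatives were other scalings, floors, filters and background correction, the deposited values, other fits, replicate and slide row blocks, and each array left out.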

Additional observations from a re-analysis of the deposited data

Results flagged for a closer look

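For 4 members, the difference from CD45+ cells was not the same in mTECs and in cTECs, by the test of mTECs against cTECs in the limma fit. The difference of the 2 log2 fold changes was 1.32 for miR-30a (0.45 in mTECs and -0.87 in cTECs), 1.11 for miR-30b (-0.62 and -1.73), 1.49 for miR-30c (-0.31 and -1.80) and 1.35 for miR-30d (0.03 and -1.32). All mTEC arrays lay above both cTEC arrays for each of them. The share of all tested miRNAs with such a separation was not taken, so this only describes the members. No member was well above background on cTEC replicate 2, and the 4 kept their calls without that array. Of the 309 tested miRNAs 16.2% were called higher in this test, and of the 120 well above background on every CD45+ and mTEC array 32.5% were. Of the 4, none was called with quantile normalization (adjusted p 0.055 to 0.18, with 3 of the 5 members at an unadjusted p under 0.05), and 2 each with the deposited values and with the percentile over every mouse probe.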

How the results depend on the processing

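Of 240 values of members called as reported, under 17 alternatives that left out no array, 201 kept direction and call, 39 lost the call and 0 turned, and of 80 uncalled values 7 became called in the same direction. For the 2 members called in mTECs against CD45+ cells, the count was 1 with quantile normalization, with the deposited values, with a 75th percentile taken over every mouse probe, with normexp followed by quantile normalization, with arrays left unscaled, with floors at the median (129) or lowest (67.0) of the arrays, and with no filter. For the 5 in cTECs against CD45+ cells it was 1 with quantile normalization, and 4 with the median as scaling, the deposited values, or normexp with quantile normalization. For the 4 in mTECs against cTECs it was 2 with the percentile over every mouse probe, 2 with the deposited values and 0 with quantile normalization (limma; 3 at an unadjusted p under 0.05), but 5 unscaled, with normexp and quantile normalization, and with either lower floor. For the 4 in TECs against CD45+ cells it was 1 with quantile normalization, 2 with the deposited values 1 with all TEC arrays as 1 group, 3 with the median, normexp and quantile normalization, the lowest floor, no filter or the slide row as a block, but 5 with the percentile over every mouse probe and unscaled. Of 10 pairs, 7 as reported, the count was 4 with the deposited values, 3 with normexp and quantile normalization together, 4 with either lower floor, and 0 on the 6 CD45+ and mTEC arrays alone, an alternative chosen after seeing the data in which no p can be under 0.1. The cause was not tested. Leaving out single arrays gave 1 to 2 members in mTECs against CD45+ cells and 2 to 9 pairs, with 2 without any single CD45+ replicate and 3 without cTEC replicate 1, where fewer arrays also raise the smallest possible p. Scaling by the median kept a count of 2 in mTECs against CD45+ cells with miR-30a (higher, 0.78) in place of miR-30b.

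Uncalled values changed sign: in mTECs against CD45+ cells, miR-30a to -0.40 and miR-30d to -0.82 with the percentile over every mouse probe, and to -0.12 and -0.54 with no scaling; miR-30c to 0.018 with the median as scaling and 0.052 with quantile normalization; and miR-30d over -0.011 to 0.077 when arrays were left out. miR-30a in TECs against CD45+ cells was 0.13 with the median as scaling. Without cTEC replicate 2 and with scaling and floor taken again, chosen after seeing the data, miR-30c in mTECs was 0.00459, miR-30a in TECs 0.20, and the counts were 3 (miR-30d higher, at 0.34), 4, 4 and 3. The scalings shift all miRNAs: the median over the 120 bright ones in mTECs against CD45+ cells was 0 as reported, -0.88 with the percentile over every mouse probe and -0.64 unscaled, with 28 higher and 46 lower calls of 309 as reported against 19 and 94, and 26 and 66. miR-30e kept its call and direction against CD45+ cells, in mTECs and in cTECs, under all alternatives run, with values from -2.46 (percentile over every mouse probe) to -0.61 (deposited values) in mTECs and from -4.27 (unscaled) to -0.90 (deposited values) in cTECs.

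Same-numbered arrays did not deviate together throughout (r of deviations from group means -0.23 to 0.27 over 224 miRNAs), and the numbers were not taken as pairs. The r was 0.27 and 0.19 for cTEC with mTEC arrays, 0.04 and -0.23 for CD45+ with cTEC arrays, and 0.05, -0.16 and 0.20 for CD45+ with mTEC arrays. Deviations within a group of 2 or 3 arrays sum to 0 and depend on each other, so these values cannot exclude pairing. With the replicate block, 1 member was called in mTECs against CD45+ cells, since miR-30b, at -0.62, had an adjusted p of 0.066, and 5 in cTECs, 4 in mTECs against cTECs and 3 for TECs. Requiring a signal well above background on all 8 arrays left no member to test.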
